A study of Mus musculus with 3 samples.

Results

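The regions described here were 3024 clusters of Ptbp2 HITS-CLIP reads that lay close to at least 1 other cluster on the same strand, in small groups of 2 to 9, on mouse chromosomes 1 to 19. The members were selected on read height, colour and position. To count as a cluster, overlapping same-strand reads had to pile up to a summit of 10 or more and include all 3 display colours of the deposited file. Same-strand clusters with gaps of up to 10 kb were joined into a group. The 3024 clusters formed 1026 groups and made up 46.9% of the 6452 clusters on these chromosomes (95% Wilson interval 45.7 to 48.1). A further 2915 clusters stood singly and 513 lay in 33 groups of 10 or more, and the whole series held 6509 clusters. Since the selection used them, heights and gaps are given as descriptions, with no test.

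The libraries came from the testes of 3 male CD1 mice aged 8 weeks, and they formed 1 group with no comparison group. The labels name no treatment, transgene or mutant allele. Each read carries a colour that the labels link to no animal, so values are given for the red, green and blue classes as 3 unnamed libraries. Identical reads had been removed between colours as well as within them, so a read present in several libraries counts in 1 class. Outside the mitochondrial chromosome the red class held 493248 reads, the green class 951531 and the blue class 281702. Whole testis holds germ cells of all stages together with Sertoli, Leydig and peritubular cells, and markers of these were not read, since genes were not assigned.

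Ptbp2 is a relative of the polypyrimidine tract-binding protein Ptbp1. Proteins of this family hold several RNA recognition motifs, contact pyrimidine-rich stretches of RNA, and can occupy more than 1 such stretch of the same transcript. They are best known as regulators of alternative splicing, acting from introns near the exons they control, and they also bind the untranslated ends of messenger RNAs. HITS-CLIP crosslinks protein to RNA in the tissue, recovers the protein with the RNA fragments attached, and sequences the fragments. A pile of fragments marks a place where the RNA was recovered often, through strong contact, abundant RNA or both, and with no input library here these cannot be told apart. In bulk tissue, fewer cells that contain an RNA and less of it per cell cannot be told apart either. All positions are in the mouse build mm9, counted from 1. Gene names, exons and bases under the clusters were not analysed here, because the gene tables at hand are for another build.

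Pairs were the commonest arrangement. There were 580 groups of 2, 198 of 3, 113 of 4, 65 of 5, 29 of 6, 18 of 7, 14 of 8 and 9 of 9 clusters. The median span rose with the number of clusters, from 2.11 kb for pairs to 5.89 kb for groups of 3, 11.0 kb for groups of 5 and 19.7 kb for groups of 9. The longest group, with 7 clusters, spanned 38.0 kb. All groups together spanned 5.84 Mb of strand, of which the clusters themselves covered 7.96%. The plus strand held 531 groups and the minus strand 495.

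Each colour class gave a like share of its reads to these clusters. They held 19815 red reads, 39284 green reads and 12217 blue reads, which were 4.02%, 4.13% and 4.34% of the class. The groups rested on the pooled depth, and most on the green class. In the green class alone 227 groups had at least 2 members with 10 or more reads at the summit, against 24 in the red class and 2 in the blue class. At a class summit of 5 reads, 867 groups had at least 2 members in the green class, 367 in the red class and 111 in the blue class. When clusters were called without the green class, 421 clusters lay in small groups, against 1548 without the red class and 2362 without the blue class. Keeping 1 read per 5' end, strand and class left 1508.

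Neighbouring clusters were most often close together. Over the 1998 pairs of neighbours, the median distance from edge to edge was 1581 nt (interquartile range 340 to 4434 nt), and from summit to summit 1746 nt. Of these pairs, 601 (30.1%, 95% Wilson interval 28.1 to 32.1) were less than 500 nt apart, and 808 (40.4%) less than 1000 nt. A gap of 5 kb or more was less common, since 78.3% of pairs were closer than 5000 nt. The median gap followed the joining distance, at 960 nt when clusters were joined up to 5 kb and 2498 nt when they were joined up to 20 kb. In groups of 10 or more the median gap was 998 nt over 480 pairs.

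**Figure D1:**
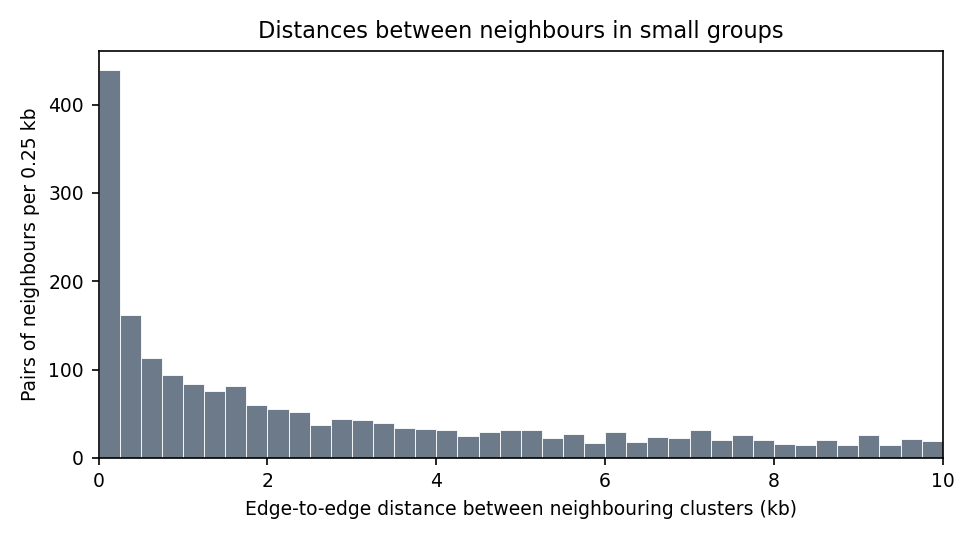
Edge-to-edge distance between neighbouring clusters of small groups, in bins of 250 nt (horizontal axis in kb, vertical axis in pairs of neighbours per bin). The first bin is the highest and the counts fall towards 10 kb, the joining limit, with 314 of the 1998 pairs less than 100 nt apart and 80 pairs at 9000 nt or more.

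The shortest gaps were shorter than a read. The longest read measured 74 nt, and 279 pairs (14.0%, 95% Wilson interval 12.5 to 15.6) were less than 75 nt apart. Among these, 180 gaps were under 25 nt and 38 were 0, where 1 run ended at the base before the next began. In 95 of the 1026 groups every gap was under 75 nt, and 87 of these were pairs. By the definition of a run, no read bridges such a gap. With clusters less than 75 nt apart counted as 1, there were 2697 clusters in 938 small groups, and the median gap was 2118 nt.

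Gaps within 1 group were uneven. In the 446 groups of 3 or more clusters the longest gap, with 1 nt added to both, was a median of 12.1-fold the shortest. This ratio can only grow with the number of gaps, and it includes gaps shorter than a read. In 276 of these groups the shortest gap was under 500 nt, in 219 the longest was over 5000 nt, and 113 groups had both. Across 972 pairs of consecutive gaps Pearson's r of log2(nt + 1) was 0.11 and Spearman's rho was 0.12, as a description of gaps that share a cluster and a library pool. Larger groups had shorter median gaps, though not at every step: the median was 1856 nt in pairs, 1477 nt in groups of 4, 1548 nt in groups of 5, 1048 nt in groups of 8 and 1176 nt in groups of 9.

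Towards higher coordinates, which is upstream on the minus strand, the next cluster of the strand was a median of 173 kb from a small group (interquartile range 26.5 to 1089 kb). From a single cluster the median was 452 kb in the same direction. The next cluster lay within 20 kb of 17.6% of small groups and of 10.5% of single clusters.

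The clusters of small groups were mostly low. Their median summit was 13 reads (interquartile range 11 to 18), the highest was 142, and 51.4% had between 10 and 13 reads. Single clusters had the same median of 13 reads and a highest summit of 250, and clusters of groups of 10 or more had a median of 14 reads. Summits of 20 or more reads were reached by 20.8% of members (95% Wilson interval 19.4 to 22.2), 16.5% of single clusters (15.2 to 17.9) and 23.6% of clusters in larger groups (20.1 to 27.4). The median width of members, 129 nt, lay between the 105 nt of single clusters and the 144 nt of clusters in larger groups. By class, the median summit of a member was 4 reads in red (interquartile range 3 to 6), 8 in green (6 to 11) and 3 in blue (2 to 4). Intervals count reads and regions as independent and cover counting error only.

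The summit height of a cluster told little about that of its neighbour. Between neighbours the taller summit was a median of 1.36-fold the lower (interquartile range 1.13 to 1.80), and the median difference was 4 reads. In 367 pairs (18.4%) the ratio was 2 or more, in 109 it was 3 or more, and the highest was 11.8. Pearson's r of log2 summits was 0.047 and Spearman's rho was 0.023 over the 1998 pairs, each counted in both orders. Recomputed with the reads of 1 class alone, r between neighbours was higher but still small, at 0.11 in red, 0.14 in green and 0.084 in blue. Spearman's rho was then 0.088, 0.13 and 0.068. The share of the variance of log2 summit that lay between groups was 1.69%. The summit minimum of 10 and the many clusters just above it leave a narrow range in which likeness could show.

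Clusters further apart had similar ratios of height to neighbours within a group. Consecutive clusters of a strand that were more than 10 kb apart had a median ratio of 1.31 over 3936 pairs, with r of -0.014. Within small groups the median ratio was 1.40 for the 279 pairs less than 75 nt apart, 1.46 for 191 pairs from there to under 300 nt, 1.34 for 338 pairs under 1000 nt, 1.36 for 489 pairs under 3000 nt and 1.30 for 701 pairs up to 10 kb. For 495 pairs between 10 and 20 kb apart the ratio was 1.30. No distance class had an r above 0.090 inside small groups. In groups of 10 or more r was 0.19 over 480 pairs, with a median ratio of 1.36.

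**Figure D2:**
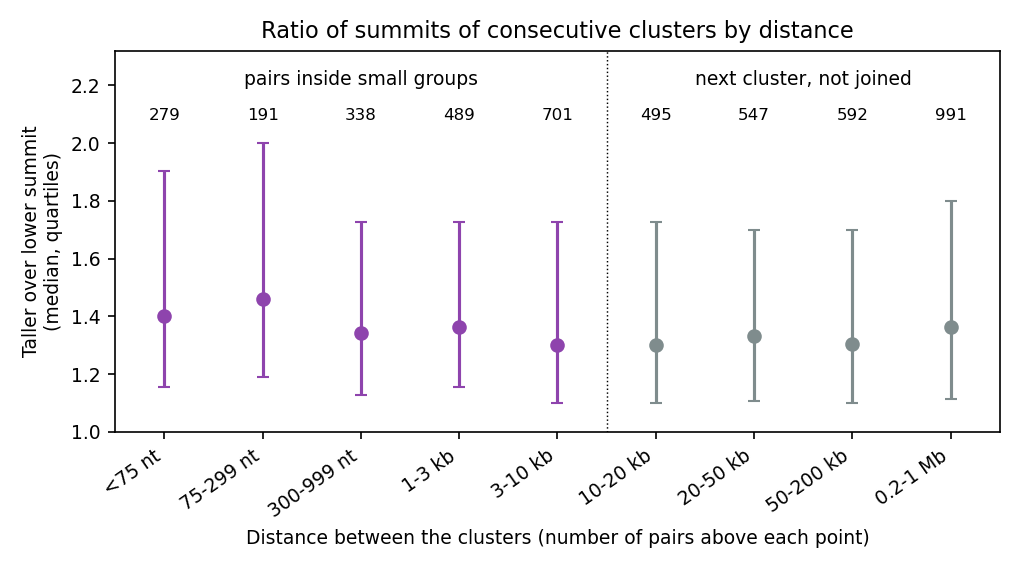
Taller summit divided by the lower for consecutive same-strand clusters, by edge-to-edge distance (points are medians, bars the quartiles, numbers the pairs; left of the dotted line pairs inside small groups, right of it consecutive autosomal clusters that were not joined). The medians lie between 1.30 and 1.46 at every distance shown, and the quartiles overlap throughout.

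Most groups with a tall member had only 1. Of the 1026 groups, 461 had at least 1 cluster of 20 or more reads, and in 332 of these it was exactly 1. Counted by cluster, these were 332 of the 628 members with 20 or more reads, and the rest shared a group with another tall member. In 28 groups all members reached 20 reads, and in 565 none did. Over all members 20.8% reached 20 reads, and 580 of the groups were pairs. That share alone would leave many groups with only 1 tall member, and whether the counts depart from it was not tested. A neighbour of a cluster with 20 or more reads was itself that tall in 23.9% of 836 cases, and a neighbour of a lower cluster in 20.1% of 3160 cases, where 1 cluster can be counted as the neighbour of 2 others. The tallest cluster was a median of 1.35-fold the lowest in pairs, 2.10-fold in groups of 5 and 3.70-fold in groups of 9, a ratio that can only grow as clusters are added.

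The taller cluster lay upstream and downstream about equally often. The downstream cluster of a pair was the taller in 910 pairs, the upstream one in 911, and 177 were level. In red the downstream cluster had more reads in 930 pairs and fewer in 865, in green the counts were 926 and 969, and in blue 850 and 859. In groups of 3 or more with 1 tallest cluster, it was the most downstream one in 106 of 407 groups (26.0%, 95% Wilson interval 22.0 to 30.5) and the most upstream one in 110 (27%, 22.9 to 31.5). An even spread over positions would give 26.3%.

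Total reads and width had higher correlations between neighbours than summits, but not smaller ratios. Pearson's r of log2 reads per cluster was 0.16 between neighbours in small groups and 0.020 between consecutive clusters that were not joined. For width it was 0.16 and 0.037. The median ratios between neighbours were 1.5 for reads and 1.51 for width, above the 1.36 for summits, and they were no smaller than the 1.45 and 1.499 of clusters that were not joined. These correlations are across regions that share libraries and transcripts, and they were small.

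The classes allowed a view of read numbers that the summit minimum did not fix. These are reads over the whole cluster, not heights at the summit. Over all pairs of neighbours, r was 0.16 for whole-cluster reads and 0.047 for summits, so the values below do not measure likeness of height. In 960 members the green reads alone reached 10 at the summit, so red and blue reads there were bound only to be at least 1. Among these were 216 pairs of neighbours. Red reads of such clusters had a median of 8 (interquartile range 4 to 13) and ran from 1 to 101, and blue reads had a median of 4 (2 to 7) and ran from 1 to 61. Between the 2 neighbours of a pair r of log2 reads was 0.27 in red and 0.22 in blue, with Spearman's rho of 0.26 and 0.22. The 336 pairs of consecutive clusters that met the same green condition but were not joined had r of 0.035 in red and -0.044 in blue. Reads differed by a median of 2.00-fold between neighbours in both classes, and by 2.40-fold in red and 2.50-fold in blue between clusters that were not joined.

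Within 1 cluster the classes were closer to each other than neighbours were. Over the 390 members in these pairs, r of log2 red and log2 blue reads was 0.61, whereas red reads of 1 neighbour and blue reads of the other gave 0.21. The split by distance had no common order in the classes: for 102 pairs less than 1000 nt apart r was 0.17 in red and 0.26 in blue, and for 114 pairs further apart 0.30 and 0.11. With counts this low these values are descriptions, and the choice of green-rich clusters was made after the data had been seen.

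**Figure D3:**
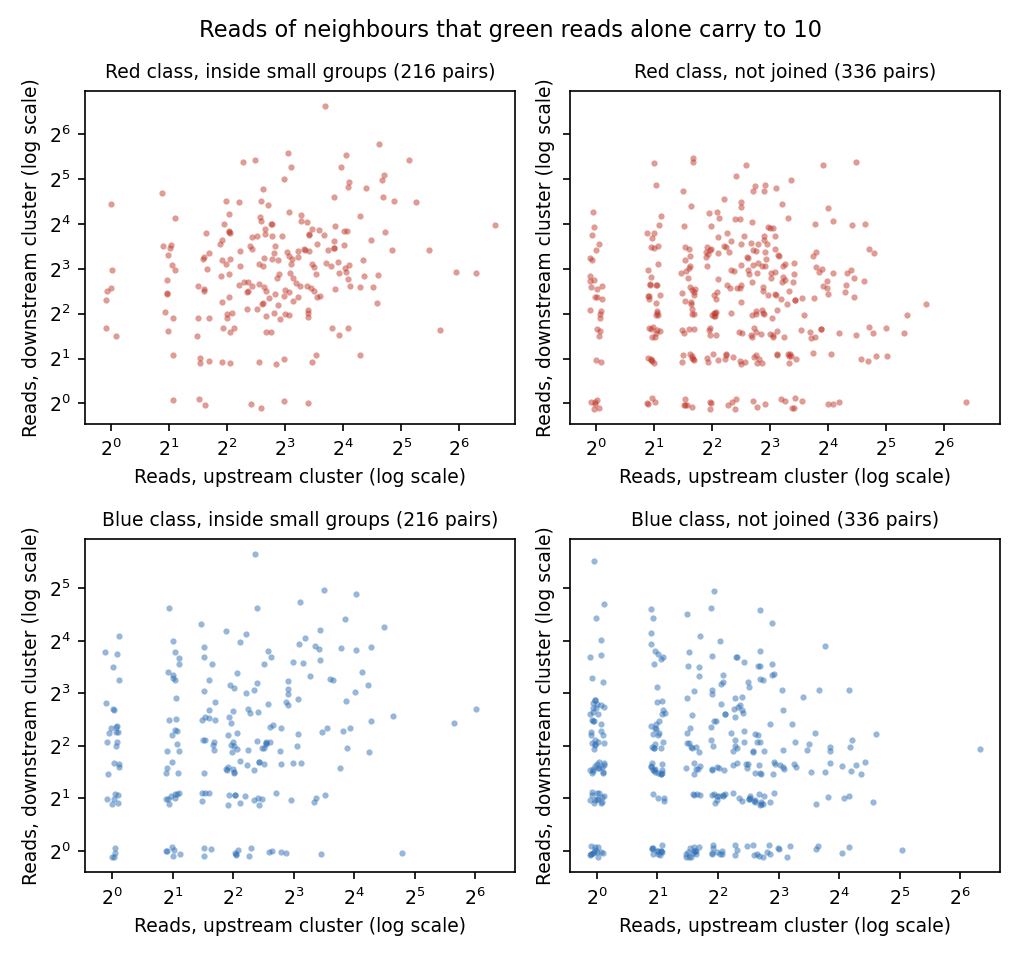
Reads of the upstream and downstream cluster of each pair in which green reads alone reach 10 at both summits (log2 axes, points shifted slightly at random so that equal counts can be seen; top row red reads, bottom row blue reads; left, 216 pairs inside small groups, right, 336 pairs that were not joined). The left clouds lean weakly upwards, with r of 0.27 in red and 0.22 in blue, and the right ones do not, with 0.035 and -0.044.

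The mix of colours was close to that of single clusters. Green made 55.1% of the reads in members, red 27.8% and blue 17.1%, against 55.4%, 26.6% and 17.9% in single clusters. The median green share of a member was 54.5% (interquartile range 43.5 to 64.3). Between neighbours r of the green share was 0.031, of the red share 0.022 and of the blue share 0.012 over the 1998 pairs. Members held a median of 18 reads, so counting error in these shares is large. A leaning to 1 class that neighbours share could be hidden by it.

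The stretches between the clusters were densely read. The gaps inside small groups held 53293 reads in 5.37 Mb of strand, or 9.92 reads per kb, with 2.89 in red, 5.42 in green and 1.61 in blue. The 10 kb on each side of the groups, which by the joining rule held no cluster of the strand, carried 5.07 reads per kb. The 10 kb on each side of single clusters carried 3.34 reads per kb, and both strands of chromosomes 1 to 19 outside clusters 0.323 on average. The gaps were thus 30.7-fold above the chromosomes at large, with 31.3-fold in red, 30.4-fold in green and 30.9-fold in blue. For gaps of 1 kb or more the density was 1.86-fold that beside the groups, and 2 of 1190 such gaps had no read. Density beside small groups was 1.52-fold that beside single clusters, with 1.54-fold in red, 1.52-fold in green and 1.49-fold in blue. In groups of 10 or more the gaps carried 14.1 reads per kb.

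**Figure D4:**
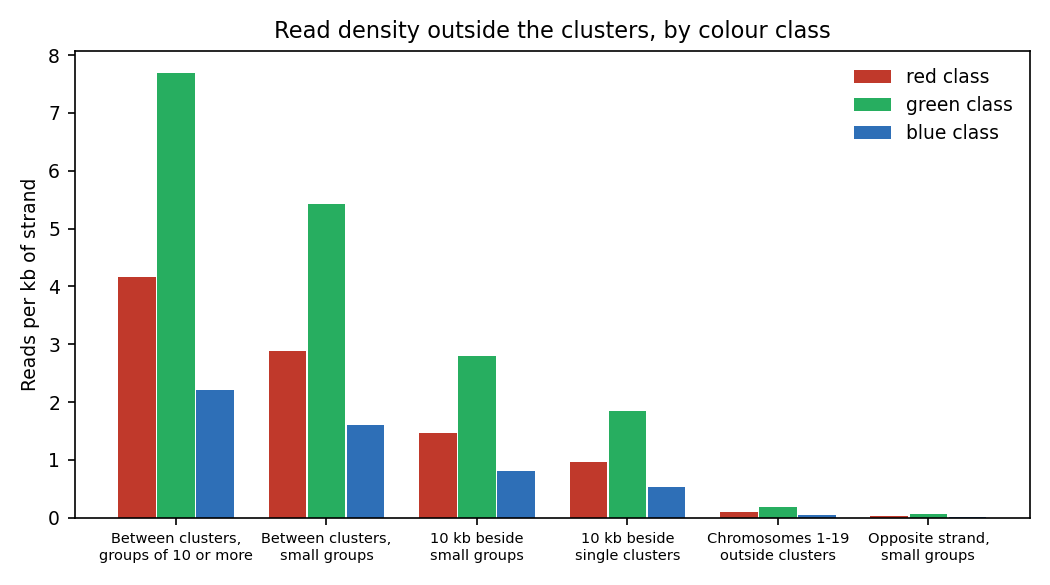
Reads per kb of strand outside the clusters for each colour class (bars start at 0; chromosomes 1-19 outside clusters are averaged over both strands). The order of the regions is the same in the 3 classes, with 5.42 green reads per kb between clusters of small groups, 2.79 beside them and 1.84 beside single clusters.

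Density between clusters went with the number of clusters in a group. Pooled over gaps of 1 kb or more, it was 7.50 reads per kb in 371 pairs, 9.71 in 265 groups of 3 to 4 and 11.1 in 131 groups of 5 to 9. The median per group was 6.90 (interquartile range 4.68 to 10.8), 9.62 (6.35 to 14.2) and 11.0 (8.37 to 14.7), so that the quartiles overlapped. With the mean log2 summit of the group, the density had a Spearman's rho of 0.18 over 767 groups. Denser reading also makes it easier for a run to reach 10 reads, and the part of this in the grouping was not tested.

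Few reads lay opposite to the groups. Over their spans 124609 reads lay on the strand of the group and 720 on the opposite strand, which was 0.574% (95% Wilson interval 0.534 to 0.618). The same-strand reads include 71316 in the members, which the rule selected on that strand, so this share is partly fixed by the selection. The gaps alone held 53293 reads, at 9.92 reads per kb, against 0.123 on the opposite strand over the spans. In 888 of the 1026 groups no read lay on the opposite strand, and 5 groups had a cluster of the opposite strand within their span.

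Reads that share a 5' end within their class were counted, because copies of 1 molecule with different 3' ends would be among them. They made 45.4% of the reads in members, with 43.0% in red, 49.96% in green and 34.6% in blue, against 47.2% in single clusters and 23.6% outside clusters. With 1 read kept per 5' end, strand and class, 1722 members (56.9%) overlapped a region that was still a cluster, as did 49.9% of single clusters. At least 2 members were kept in 520 groups, all members in 240, exactly 1 in 362 and none in 144. The median read was 48 nt long in members, 49 nt in single clusters and 46 nt outside clusters.

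The share of clusters that lay in small groups ranged widely over the chromosomes. Chromosome 14 had the highest share, 59.6% of 297 clusters (95% Wilson interval 53.9 to 65.02), followed by chromosome 11 with 57.9% of 397 and chromosome 12 with 55.7% of 305. Chromosomes 18 and 3 had the lowest shares, 32.3% of 189 (26.0 to 39.2) and 32.5% of 409 (28.2 to 37.2). Per Mb between the first and the last read, chromosome 17 held the most members, 2.29, and chromosome 18 the fewest, 0.695. Clusters of 1 group are not independent, so these intervals are too narrow.

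The tallest member of all stood in a group of 7 at chr5:129242179-129261337 (plus strand). Along the strand its summits were 53, 25, 17, 11, 12, 142 and 20 reads. The cluster with the summit of 142 ran from 129260073 to 129261041 and held 83 red, 245 green and 61 blue reads over its whole width, and its neighbours at 85 nt upstream and 79 nt downstream had summits of 12 and 20. The first 2 clusters, with summits of 53 and 25, touched each other with a gap of 0. Near clusters thus stood at both ends of the group, and the nearest cluster downstream of the first block followed after 9263 nt. Its tallest summit was 12.9-fold its lowest, the highest such ratio among the small groups.

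The members with the next highest summits also had neighbours far below them. These groups were named for their highest summit, so this follows in part from the choice. The median summit of all members was 13 reads. At chr14:101597656-101598436 (minus strand), a summit of 117 reads followed one of 14 after a gap of 5 nt. The tall cluster held 89 red, 173 green and 45 blue reads, and its neighbour 3, 9 and 4. At chr4:127604782-127628858 (minus strand), 6 clusters had summits of 12, 11, 12, 25, 27 and 106 reads along the strand. The last, 7763 nt from its neighbour, held 24 red, 129 green and 25 blue reads, so that 72.5% of its reads were green. In all 3 groups the tallest summit was more than 2-fold the next highest.

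In the groups with summits of 102 and 101 reads the tallest cluster was not the last. At chr4:93972827-93982466 (minus strand), the summits along the strand were 19, 11, 102, 18 and 12 reads, and 99 of the 137 reads of the tall cluster were green. At chr5:135095766-135097435 (minus strand), summits of 101, 20 and 27 reads lay in 1.67 kb with gaps of 8 and 28 nt. There the tall cluster held 58 red, 112 green and 20 blue reads, and the span held no read on the opposite strand. All 3 clusters of that group were still clusters with 1 read kept per 5' end.

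The other 5 of the 10 groups with the highest summits had a top of 77 to 95 reads. They were a pair on chr12:8485697-8487232 (minus strand, summits of 95 and 15), a group of 5 on chr13:24893883-24905869 (plus strand, highest summit 81), a pair on chr5:136384559-136386582 (minus strand, summits of 81 and 10), a group of 8 on chr15:74479299-74485900 (plus strand, highest summit 77) and a group of 3 on chr5:150617193-150631099 (minus strand). In this last group the classes differed between members. The most upstream cluster had a summit of 77 reads and held 7 red, 63 green and 8 blue reads in all, and the most downstream one had a summit of 10 and held 1 red, 1 green and 10 blue reads. The group on chromosome 15 kept 3 of its 8 clusters with 1 read per 5' end, and the pair on chromosome 12 kept both. The group of 3 on chromosome 5 kept 2, and the blue-rich cluster at its downstream end was the one lost.

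The 9 groups of 9 clusters lay on chromosomes 2, 4, 6, 7, 9, 11, 12 and 14, with 2 on chromosome 7. Their highest summits ran from 20 to 48 reads and their spans from 9.62 to 29.3 kb. The most compact, at chr4:154799134-154808757 (plus strand), had summits of 32, 11, 13, 17, 11, 25, 43, 15 and 15 reads along the strand. Its gaps ran from 14 to 1773 nt, and the cluster with the summit of 43 held 36 red, 74 green and 26 blue reads in all. At chr6:122677840-122690011 (minus strand), a summit of 48 reads stood first, 7365 nt ahead of 8 clusters with summits of 10 to 29. The 8 later clusters were packed with gaps of 0 to 1248 nt.

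The most extended group of 9, at chr12:7689457-7718802 (minus strand), began with summits of 22 and 44 reads 120 nt apart. The next cluster followed after 9167 nt, close to the joining limit. At chr14:124856013-124874823 (minus strand), 4 clusters of 10 to 14 reads lay at the upstream end and 1 of 37 reads near the downstream end, with a gap of 8838 nt between the fourth and the fifth cluster. Both groups thus had gaps of several kb between blocks of near clusters.

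The other 5 groups of 9 had highest summits of 20 to 40 reads. The group at chr9:67538079-67564499 (minus strand) was the most even, with summits from 11 to 20 reads. That at chr11:77072299-77098389 (plus strand) ran from 10 to 25 reads, and its last 2 clusters, with summits of 25 and 11, were 71 nt apart. On chromosome 7, the plus-strand group from 112821838 to 112837747 had a summit of 40 reads with 1 blue read among its 43, and the minus-strand group from 134039491 to 134064135 had a highest summit of 27. The group at chr2:178119993-178139708 (minus strand) had a highest summit of 28 reads and gaps of 308 to 5466 nt. With 1 read per 5' end, 4 to 8 of the 9 clusters of each group were kept. In the 9 groups, 0 to 4 reads lay on the opposite strand against 403 to 563 on the strand of the group.

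**Figure D5:**
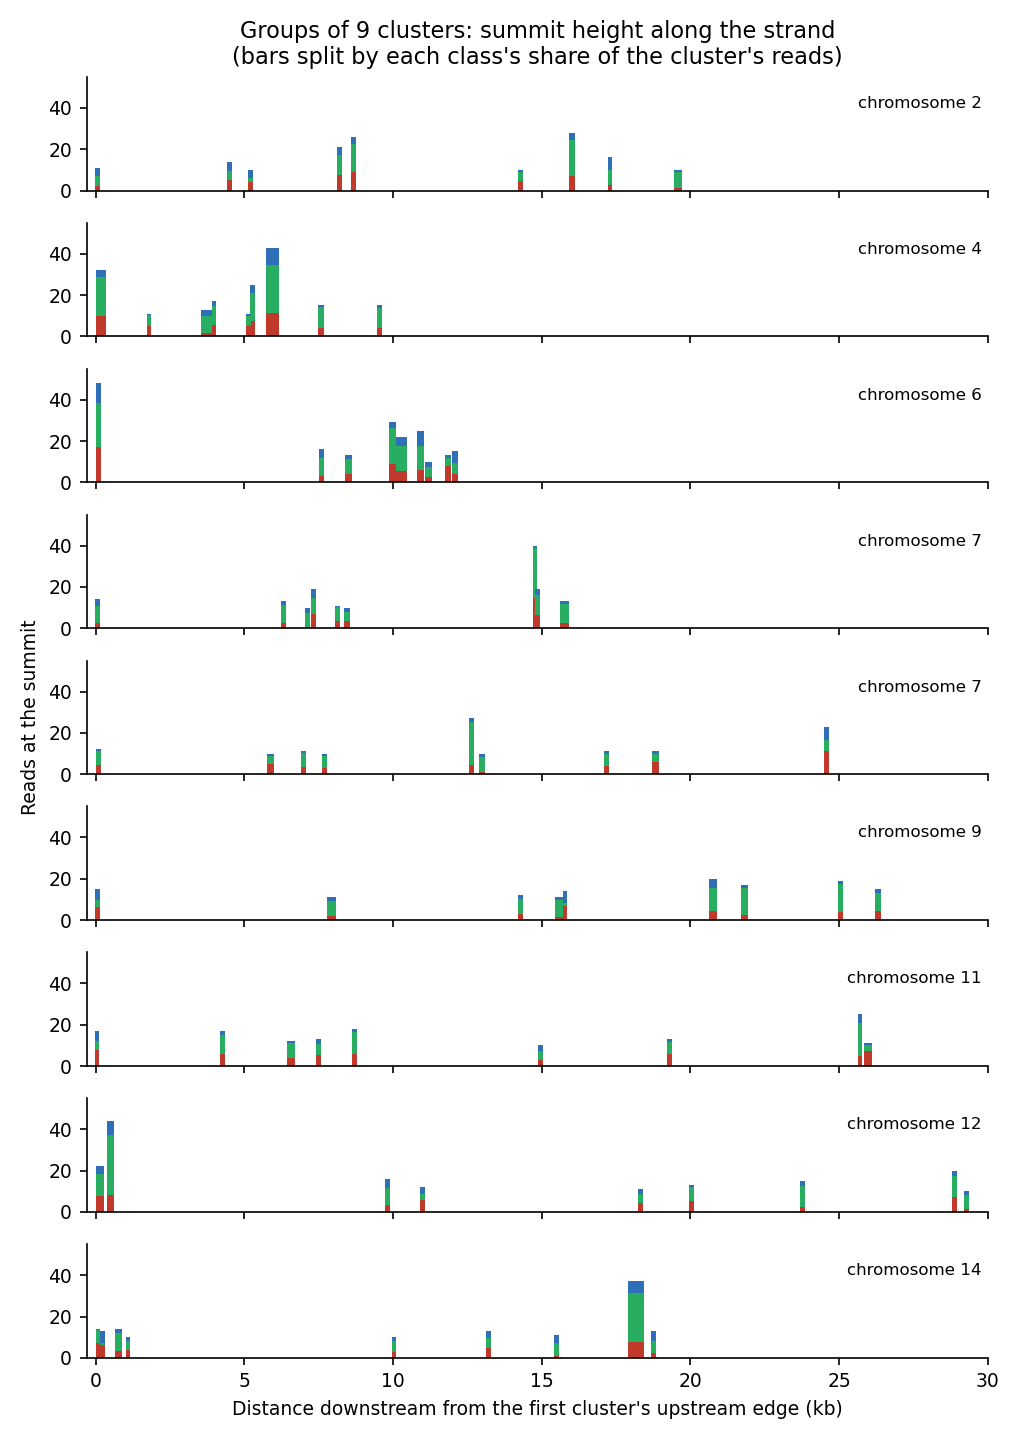
Summit height of each cluster in the 9 groups of 9 clusters, against distance downstream from the upstream edge of the group in kb (each bar is a cluster, at least 0.16 kb wide for visibility, split into the shares of its reads that are red, green and blue). Summits run from 10 to 48 reads, tall and low clusters are interspersed along the strand, and the longest gap in a group runs from 1773 nt, in the chromosome 4 group, to 9167 nt, in the chromosome 12 group.

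Among the 135 groups of 5 or more clusters, the 3 with the most even summits had only clusters of 10 or 11 reads at the summit. At chr7:116536273-116552501 (minus strand), all 5 clusters had a summit of 11 reads, and together they held 23 red, 35 green and 15 blue reads. At chr14:124918513-124929942 (minus strand) and at chr11:87020642-87035852 (plus strand), all 5 had 10 or 11 reads. With 1 read kept per 5' end, 0 of the 15 clusters in these 3 groups remained. The 3 with the least even summits were the groups with tops of 142, 102 and 106 reads described above, where the SD of log2 summit was 1.31, 1.30 and 1.25.

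The joining limit fell within a continuous range of distances. The 3 widest gaps inside small groups were 9995 nt on the plus strand of chromosome 4 (91914684 to 91914830 and 91924826 to 91924970, summits of 12 and 50), 9993 nt on chromosome 6 (summits of 13 and 11) and 9985 nt on chromosome 8 (summits of 10 and 17). The 3 narrowest gaps that were not joined were 10001 nt on the minus strand of chromosome 12 (71073113 to 71073215 and 71083217 to 71083340, summits of 16 and 19), 10036 nt on chromosome 16 (summits of 13 and 11) and 10042 nt on chromosome 11 (summits of 11 and 10). Summits in these pairs ran from 10 to 50 reads inside the limit and from 10 to 19 outside it. At the other end, 38 pairs had a gap of 0. The 3 with the highest lower summit were on chromosome 19 (chr19:5796937-5798651 and chr19:5798652-5798816, minus strand, summits of 32 and 35), in the group with the 142-read summit on chromosome 5, and in the group of 9 on chromosome 6 (summits of 22 and 29).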

How the data were processed

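HITS-CLIP libraries from 3 mice were analysed. Mapping used Bowtie and the build mm9, per the submitters' processing notes. The sources used here do not give its version, its settings or how reads with several places were handled. Each line of the single table that the authors deposited is 1 read, with its ends, strand, display colour and score. The deposited score was 0 on every line and was not used. No 2 lines of any colour shared chromosome, ends and strand, so copies had been collapsed across the colours as well as within them. This flattens tall clusters and can lower the count of a class at sites that libraries share. Read ends are positions and carry no other unit in the deposited file.

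Computations used Python 3.11.15, numpy 2.4.6, pandas 2.3.3 and scipy 1.17.1. A gap runs from edge to edge. A correlation between neighbours counts each pair in both orders. Calling and joining were run on simulated data with planted groups among randomly placed reads. The planted clusters all stood above the summit minimum, with gaps longer than a read. Clusters at the minimum, gaps shorter than a read and densely read gaps were therefore not covered. The 3 colours were taken as the 3 libraries because their numbers match. Values are given per class rather than as an SD over classes, and with no comparison group no test was made.

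The clusters, the joining distance and the alternatives were chosen with earlier results of these data known. Regions are named by this rule: every group of 9, the 10 groups with the highest summits, the 3 most and 3 least even groups of 5 or more (SD of log2 summit), the 3 pairs nearest to 10 kb on each side and the 3 narrowest gaps, with ties broken by the lower summit. The planned gene lists, cell type markers, annotation and motifs were not analysed here, because the gene tables at hand are for GRCm38 and positions were not converted.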

Additional observations from a re-analysis of the deposited data

Results flagged for a closer look

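Small groups were also found outside chromosomes 1 to 19, which the comparisons did not use. They held 6 clusters in 3 groups, with 31 red, 59 green and 12 blue reads. The X chromosome held 4 of these clusters in 2 groups, with a highest summit of 19 reads. A sequence assigned to chromosome 8 without a position on it (chr8_random) held 2 clusters in 1 group, with a highest summit of 10 reads. There are no control libraries to set these reads against.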

How the results depend on the processing

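The number of clusters in small groups, 3024, was 10741 at a summit minimum of 5 reads, 350 at a minimum of 20, 1508 when reads of a class with the same 5' end were counted once, and 421 to 2362 with 1 class left out. It stayed within 1.5 times when clusters were joined up to 5 or 20 kb, when 2 of 3 classes were required and when clusters less than 75 nt apart were counted as 1. The median gap, 1581 nt, was 960 nt and 2498 nt when joined up to 5 and 20 kb, 1746 nt from summit to summit, 2118 nt with clusters less than 75 nt apart counted as 1, and 1563 to 1833 nt with 1 class left out. The median height ratio, 1.36, was 1.5 at a summit minimum of 5 and with all reads of the cluster as height, 1.30 at a minimum of 20, 1.29 with same-class 5' ends counted once, and 1.25 to 1.31 with 1 class left out. The correlation of neighbouring summits, 0.047, was 0.14 at a minimum of 20 and 0.012 to 0.056 with 1 class left out. With reads over the whole cluster in place of summits it was 0.16. Where green alone reached 10, whole-cluster reads gave 0.27 in red and 0.22 in blue. These 2 values differ from 0.047 both in the measure and in the choice of clusters. No setting turned the sign of the correlation. Counting near clusters as 1 and the condition on green were chosen after seeing the data. For these changes the cause was not tested. Some settings admit fewer reads or pairs by construction. A summit of 10 in 1 class alone was reached by 48 members in blue, 205 in red and 960 in green, and the part of depth in this was not tested. No paired analysis was possible because all libraries belong to 1 group.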

Other observations

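The gaps inside small groups also held runs that missed the cluster rule. There were 2342 runs with 5 to 9 reads at the summit and 109 with 10 or more reads that lacked a colour class, and 1092 of the 1998 gaps (54.7%) held at least 1 run of either kind. Just outside the summit minimum, 164 runs in the gaps had 9 reads at the summit and all 3 classes, and just inside it 548 members had exactly 10. The first count covers the gaps only and the second all members, so they do not measure a step at the minimum.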
